A study of Mus musculus with 45 samples.

Results

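The 8 genes described here encode the type 2 cytokines that tuft cells make and the chains through which such cytokines act: the cytokines Il25 and Tslp, the receptor chains Il17rb, Il13ra1, Il4ra and Il2rg, the transcription factor Stat6 and the feedback inhibitor Cish. They were chosen by name for their place in this pathway, out of 47729 genes in the tables, and all 8 were among the 14020 genes tested. They were measured by bulk RNA-seq in 45 libraries of sorted small intestinal tuft cells, 1 library per mouse. The mice were male C57BL/6J, were 5 weeks old at arrival, were housed at thermoneutrality and were given either a high fat diet (HFD, 60% of energy from fat) or a low-fat reference diet (RFD, 10%). For 9 weeks of feeding (titles starting STF) there were 11 RFD and 11 HFD mice, and for 22 weeks (titles starting LTF) 11 RFD and 12 HFD mice. All groups were sorted as live EpCAM+CD45+Siglec-F+ cells, so every library came from a gate and none from unsorted epithelium. The labels and the sort description name CD45 as positive, while the same methods also speak of leaving out CD45-bearing cells so as to avoid M cells, and the libraries held Ptprc, the gene of CD45, at group means from 76.6 to 165.7 CPM. Mice were kept 4 to a cage and were killed over 3 days, with a cage of every group on each day, but the labels tie no mouse to a cage or day. The sample labels gave 9 weeks for all 45 libraries, and the 22 weeks were taken from the study's methods. The sets were also separate tables, so feeding time and set cannot be told apart.

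Tuft cells are rare chemosensory cells of the intestinal epithelium and its main source of IL-25. IL-25 acts through IL-17RB, paired with IL-17RA, on group 2 innate lymphoid cells, which in turn release IL-13, and TSLP is a second epithelial cytokine that acts on such cells. IL-13 and IL-4 signal in epithelium through IL-4Rα paired with IL-13Rα1. In leukocytes IL-4, but not IL-13, also signals through IL-4Rα paired with the common gamma chain (Il2rg). STAT6 carries the signal to the nucleus, where it directs epithelial progenitors towards tuft and goblet cells. CIS, the product of Cish, is a STAT5 target that dampens cytokine receptor signalling.

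The study also expressed Il25 in sorted cells by RT-qPCR relative to Dclk1, a microtubule-associated kinase used as a tuft cell marker, and that ratio is followed here in the reads. The primers it listed are shown because they fix which stretch of each transcript the RT-qPCR ratio was read from. Each was matched to GENCODE M21 transcripts on GRCm38, and bases are written 5′ to 3′ with no part in capitals.
Il25 primer listed as forward: cgattcaagtccctgtccaa
Il25 primer listed as reverse: aagtggagctctgcatctg
Dclk1 primer listed as forward: ccatcacaaaccatacacatcg
Dclk1 primer listed as reverse: gcaagtcaccaagtccatca
Both Il25 primers matched the only Il25 transcript, in coding exons at chr14:54935105-54935124 (antisense) and chr14:54933104-54933122 (sense). The Dclk1 primers matched an untranslated exon at chr3:55466644-55466665 in 2 of 15 transcripts (antisense) and a coding exon at chr3:55463043-55463062 in 12 of 15 (sense). The reads of Dclk1 used below were counted over the whole gene.

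Cish is a textbook STAT target, and STAT dimers bind the palindrome TTCNNNGAA. In the RefSeq promoter table (GRCm38.p6, 250 bases before to 50 after each gene start) 6 of the 8 genes had an entry. Among them this motif was found in the Cish promoter only, at 2 places just after the RefSeq start. GENCODE M21 starts Cish upstream, at chr9:107296026, so both places lie inside the gene as drawn there. Capitals mark the matches, on the + strand of chr9:107296654-107296683.
Cish: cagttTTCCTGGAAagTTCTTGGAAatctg
Of all 32851 promoters of this length, 8.30% held TTCNNNGAA at least once and 0.457% held it 2 or more times. The spacing variant TTCNNNNGAA, found in 6.95% of all promoters, was in none of the 6. Both motifs read the same on both strands. The promoters of Il17rb, Il13ra1, Il4ra, Il2rg and Stat6 held neither.

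Libraries held between 189340 and 4690213 reads on genes, with 2 under 500000, both at 9 weeks (RFD mouse 40 and HFD mouse 50). Libraries varied widely, with a biological coefficient of variation of 0.794 at 9 weeks and 0.702 at 22 weeks. 3 libraries stood apart. HFD mouse 80 at 9 weeks and HFD mouse 6 at 22 weeks held Dclk1 at only 33.4 and 160.5 CPM (reads of a gene scaled to a common library size, normalized within the set), and RFD mouse 3 at 22 weeks had reads on only 8609 genes. HFD mouse 80 also held the highest summed level of 6 Paneth cell markers, 649900 CPM, beside medians of 3106 CPM in RFD and 27570 CPM in HFD mice of the 9 weeks set. The tuft label was checked on 26 markers, all of them detected. Their summed level spanned 4616 to 31650 CPM on RFD and 519.9 to 31440 CPM on HFD at 9 weeks, and 5769 to 38830 against 1776 to 35070 CPM at 22 weeks. None of the 26 passed the test (7 at 9 weeks and 3 at 22 weeks had an unadjusted p under 0.05), but 25 at 9 weeks and 24 at 22 weeks had lower fitted values on HFD, with a median log2 fold change of -0.90 and -0.37 beside -0.05 and -0.03 over all genes. The members' differences given next were also fitted beside covariates of tuft content, without a test of cause. With tuft purity (tuft markers against those of other cells) or Dclk1's level as a covariate at 9 weeks, the log2 fold change of Il25 went from -1.44 to -0.84 or -0.83, that of Il17rb from -0.78 to -0.32 or -0.22, and that of Il4ra from -0.50 to -0.11 or -0.10. The 9 weeks log2 fold change of Tslp went from -0.77 to -0.65 with purity or -0.51 with Dclk1's level. At 22 weeks Il17rb went from -0.44 to -0.23 with purity, while Il25 and Tslp moved by less than 1.5 times with either. Markers of other cells that passed the test were Olfm4 and Smoc2, 2 of 5 stem cell markers, which rose at 9 weeks (log2 fold changes of 2.05 and 1.71, edgeR adjusted p 0.0848 and 0.0662), Cck and Gcg, 2 of 7 enteroendocrine markers, which fell at 22 weeks (-7.73 and -6.20, edgeR adjusted p 0.0062 and 0.0279), and Mttp, 1 of 10 enterocyte markers, which rose at 22 weeks (1.04, edgeR adjusted p 0.0614). Their part in the members' values was not tested. In bulk libraries, fewer cells of a type and less RNA of a gene per cell cannot be told apart.

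None of the 8 genes passed the test between diets in either set (edgeR quasi-likelihood test, Benjamini-Hochberg adjusted p under 0.1 over all genes), where 3.32% of all genes passed at 9 weeks and 0.792% at 22 weeks, and none passed with DESeq2. At an unadjusted p under 0.05, 1 of 8 (Il25) was reached at 9 weeks, where 18.0% of all genes were, and 2 of 8 (Il25 and Tslp) at 22 weeks, where 10.3% of all genes were. Both were lower on HFD, a direction in which 8.27% and 5.61% of all genes reached that p.

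**Figure D1:**
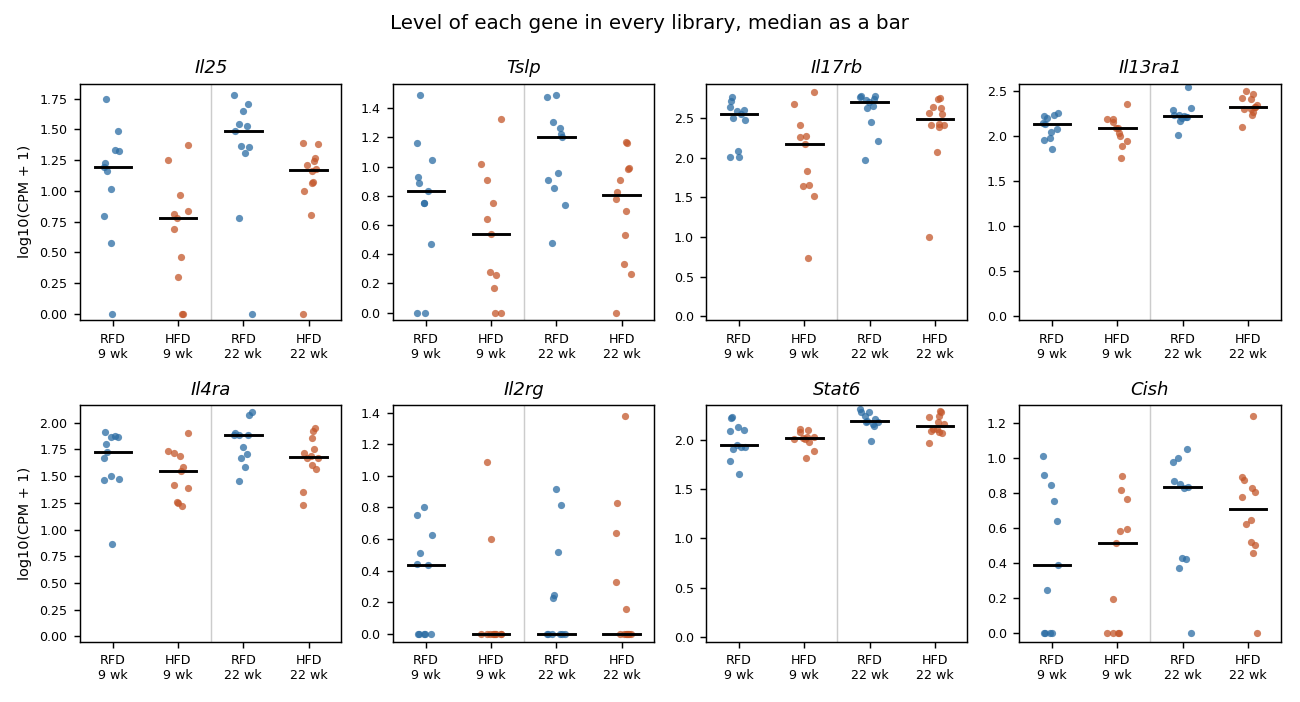
Level of each of the 8 genes in each library, on a log10(CPM + 1) axis, for RFD (blue) and HFD (orange) after 9 and 22 weeks; each point is 1 mouse and each bar the group median. Il25 and Tslp on HFD at 22 weeks sit below the RFD median in all 12 mice, Il17rb spreads widely, Stat6 and Il13ra1 are tight, and Il2rg is at 0 in 27 of 45 libraries.

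Il25 (14:54932695-54935837, + strand, GRCm38), the cytokine that links tuft cells to innate lymphoid cells, at 9 weeks ran from 0 over a median of 14.6 to 55.4 CPM on RFD and from 0 over 4.998 to 22.6 CPM on HFD, and 9 of 11 HFD mice were below the RFD median. The highest values were those of RFD mouse 21 (188 reads) and, on HFD, mouse 64 (47 reads). Means were 17.0 ± 15.4 and 6.44 ± 7.17 CPM (SD, n = 11 and 11), so the spread within RFD exceeded the difference. The log2 fold change was -1.44 (SE 0.61, 95% interval -2.68 to -0.19), with an adjusted p of 0.207 (edgeR). At 22 weeks Il25 ran from 0 over 29.9 to 59.7 CPM on RFD and from 0 over 13.9 to 23.3 CPM on HFD. All 12 HFD mice lay below the RFD median and 6 of 11 RFD mice lay above every HFD mouse, while the lowest RFD mice overlapped with HFD. The means were 28.95 ± 17.99 and 13.2 ± 6.71 CPM (SD, n = 11 and 12), with a log2 fold change of -1.11 (SE 0.46, interval -2.04 to -0.18) and an adjusted p of 0.396 (edgeR).

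2 settings and 1 library moved the call of Il25. It passed at 9 weeks with no filter on low counts (edgeR adjusted p 0.0901) or without HFD mouse 64 (-1.86, edgeR adjusted p 0.0569), and at 22 weeks without RFD mouse 3 and HFD mouse 6, the libraries that stood apart, in each of which Il25 had no read (-1.12, edgeR adjusted p 0.0886). More genes of any kind passed in each of those fits as well. At 9 weeks 1505 genes passed with no filter and 1996 without HFD mouse 64, beside 466 in the main fit. At 22 weeks 189 passed without the libraries that stood apart, beside 111 in the main fit. These calls are therefore not read as particular to Il25. Over all other alternatives Il25 did not pass, with adjusted p up to 0.694 at 9 weeks and 0.861 at 22 weeks. Without HFD mouse 80 at 9 weeks it stood at -1.32 (edgeR adjusted p 0.305).

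Tslp, the second cytokine, was counted on fewer reads, at most 56 in a library. At 9 weeks it ran from 0 over 5.81 to 30.1 CPM on RFD and from 0 over 2.47 to 20.2 CPM on HFD. The groups overlapped over nearly their whole range, with 8 of 11 HFD mice below the RFD median. The log2 fold change was -0.77 (SE 0.69, interval -2.19 to 0.64, edgeR adjusted p 0.588), and it went to -0.32 without RFD mouse 3 and to -1.36 without HFD mouse 64. At 22 weeks it ran from 1.99 over 14.9 to 30.1 CPM on RFD and from 0 over 5.36 to 13.6 CPM on HFD. All 12 HFD mice were below the RFD median, 6 of 11 RFD mice were above every HFD mouse and 3 HFD mice were below every RFD mouse. Means were 13.99 ± 9.51 and 5.90 ± 4.61 CPM (SD, n = 11 and 12), with a log2 fold change of -1.26 (SE 0.50, interval -2.29 to -0.23, edgeR adjusted p 0.367). No alternative brought Tslp past the threshold, and its lowest adjusted p was 0.142 at 22 weeks, on leaving out 1 library.

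5 libraries held no Il25 read and 5 no Tslp read. A count of 0 (floor of 3 reads) allows up to 1.28 to 15.8 CPM of Il25 and 1.82 to 15.8 CPM of Tslp in those libraries, depending on their depth, so a level near the HFD median was not detectable in the shallowest of them. Il33, the third epithelial cytokine of this kind, was read at 4.69 CPM on RFD and 3.23 on HFD at 9 weeks and at 7.87 and 7.76 CPM at 22 weeks (group means), and did not pass the test either.

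Il17rb (14:29996135-30008896, - strand), the IL-25-binding receptor chain, was the most abundant member. Per transcript length its median was 165 TPM (the authors' length-scaled unit) on RFD and 80.5 on HFD at 9 weeks, and 203 and 171 TPM at 22 weeks. In CPM it ran from 101.9 over 359.7 to 588.5 on RFD and from 4.45 over 148.8 to 681.7 on HFD at 9 weeks. HFD held both the lowest library (mouse 80) and the highest (mouse 64), and 5 of 11 HFD mice lay below every RFD mouse. At 22 weeks it ran from 93.7 over 507.7 to 611.4 CPM on RFD and from 9.05 over 316.4 to 578.7 CPM on HFD, with 10 of 12 HFD mice below the RFD median. Neither difference passed. They were -0.78 (SE 0.55, interval -1.91 to 0.35, edgeR adjusted p 0.472) and -0.44 (SE 0.37, interval -1.19 to 0.31, edgeR adjusted p 0.737), or -0.65 and -0.40 without the libraries that stood apart. At 9 weeks Il17rb stood at -1.20 without HFD mouse 64 and at -1.53 with limma on log2(TPM + 1), neither of which passed. Il17rb overlaps Actr8 on the opposite strand, and the libraries carried no strand, so reads of the overlap cannot be told apart.

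Il13ra1 (X:36112110-36171259, + strand), the chain that completes the epithelial IL-13 receptor, differed less between libraries. At 9 weeks it ran from 70.04 over 135.7 to 177.2 CPM on RFD and from 55.7 over 122.1 to 227.9 CPM on HFD, and the HFD range enclosed the RFD range. The log2 fold change was -0.09 (SE 0.21, interval -0.52 to 0.35, edgeR adjusted p 0.876). At 22 weeks it ran from 102.5 over 166.0 to 347.7 CPM on RFD and from 124.4 over 206.9 to 318.0 CPM on HFD, with 11 of 12 HFD mice above the RFD median. The log2 fold change was 0.29 (SE 0.18, interval -0.07 to 0.66, edgeR adjusted p 0.605).

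Il4ra (7:125552120-125579474, + strand), the chain shared by the IL-4 and IL-13 receptors, ran from 6.37 over 52.0 to 81.4 CPM on RFD and from 15.6 over 34.04 to 78.9 CPM on HFD at 9 weeks. At 22 weeks it ran from 27.4 over 74.9 to 124.9 CPM on RFD and from 15.8 over 46.6 to 87.3 CPM on HFD. The ranges overlapped, but 9 of 11 and 10 of 12 HFD mice were below the RFD median. The log2 fold changes were alike in size, -0.50 (SE 0.31, interval -1.13 to 0.13, edgeR adjusted p 0.409) and -0.48 (SE 0.27, interval -1.03 to 0.07, edgeR adjusted p 0.553). The first went to -0.24 with the number series as batch and the second to -0.29 without the libraries that stood apart.

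Il2rg (X:101264378-101268255, - strand), the common gamma chain of leukocyte cytokine receptors, was hardly read in these cells. It had no read in 27 of 45 libraries and 3 reads or fewer in 35, and a count of 0 allows up to 0.640 to 15.8 CPM in those at 0. At 9 weeks the highest values were 5.35 CPM on RFD and 11.3 CPM on HFD, and at 22 weeks 7.25 and 22.8 CPM. The highest 2 were HFD mouse 31 at 22 weeks (47 reads) and HFD mouse 60 at 9 weeks (20 reads). Those libraries also held the highest summed levels of 7 macrophage and dendritic cell markers, 2453 and 714.1 CPM beside group medians between 4.83 and 12.7 CPM, and the part of such cells in the Il2rg reads was not tested. The log2 fold changes were -0.40 (SE 1.153, edgeR adjusted p 0.897) and 0.89 (SE 1.07, interval -1.29 to 3.08, edgeR adjusted p 0.829), and the first went to -2.29 without HFD mouse 60 and to -0.08 without RFD mouse 24, and the second to -0.71 without HFD mouse 31 and to 1.63 without RFD mouse 10. Il2rg overlaps Gm20489 on the same strand.

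Stat6 (10:127642986-127660957, + strand), the transcription factor of IL-4 and IL-13 signalling, was read in every library. It ran from 44.6 over 87.6 to 169.3 CPM on RFD and from 65.4 over 104.5 to 127.2 CPM on HFD at 9 weeks, and from 97.3 over 153.9 to 207.9 CPM on RFD and from 93.3 over 137.8 to 197.0 CPM on HFD at 22 weeks. It had the narrowest intervals of the 8 genes in both sets. The log2 fold changes were -0.05 (SE 0.20, interval -0.47 to 0.36, edgeR adjusted p 0.925) and -0.14 (SE 0.16, interval -0.46 to 0.18, edgeR adjusted p 0.814). Stat6 overlaps Nab2 on the opposite strand. Opposite-strand overlaps also hold for Tslp with 4930455D15Rik, Il4ra with Gm44876, and Cish with Gm17040 and Gm17041. Reads of these overlaps cannot be told apart either.

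Cish (9:107296026-107302784, + strand), the inhibitor with the motif pair shown above, was read at most 36 times in a library and not at all in 10. At 9 weeks its median was 1.44 CPM in RFD mice and 2.27 CPM in HFD mice, and at 22 weeks 5.87 and 4.20 CPM, with highest values of 9.32 and 6.85 and then 10.2 and 16.3 CPM. The groups overlapped throughout. The log2 fold changes were -0.38 (SE 0.98, edgeR adjusted p 0.884) and -0.13 (SE 0.60, edgeR adjusted p 0.965), with intervals that reach well to both sides of 0.

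**Figure D2:**
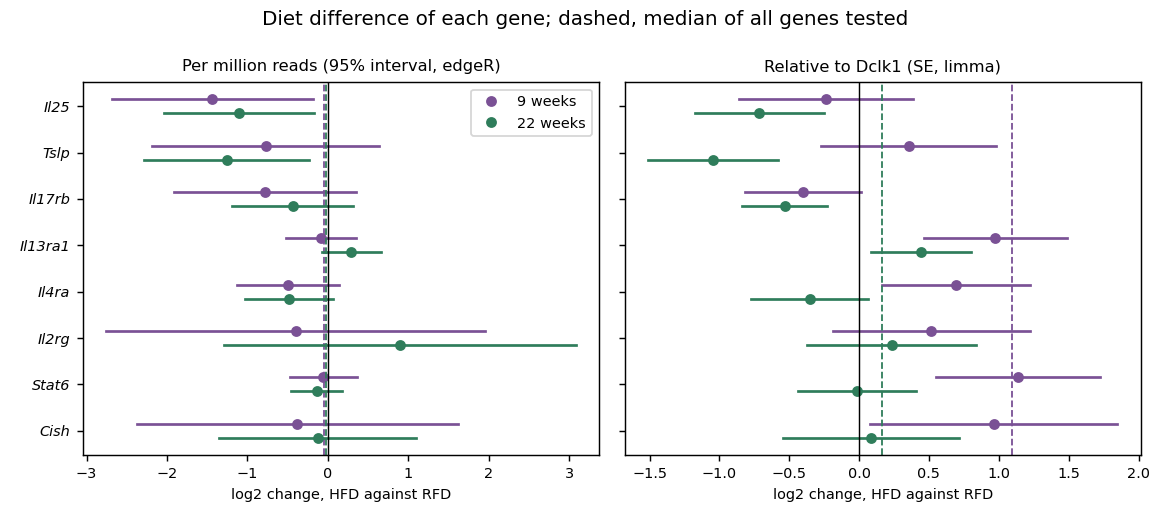
Difference between HFD and RFD for each gene at 9 weeks (purple) and 22 weeks (green), in log2 units: on the left from normalized read counts with the 95% intervals of the edgeR fit, on the right relative to Dclk1 in the same library with the SE of the limma fit; dashed lines mark the median of all genes tested. On the left Il25 in both sets and Tslp at 22 weeks have intervals below 0; on the right the 9 weeks values of Stat6 and Il13ra1 lie near the median of all genes, 1.10.

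Ordered by TPM in RFD mice at 22 weeks, the medians were 203 for Il17rb, 40.2 for Stat6, 40.1 for Il13ra1, 32.4 for Il25, 15.2 for Il4ra, 14.9 for Tslp, 1.57 for Cish and 0 for Il2rg, beside 1089 for Dclk1. Il17rb (45.5 to 287 TPM) overlapped its neighbours only at its lowest library. Stat6 (24.6 to 52.1 TPM), Il13ra1 (25.6 to 83.1 TPM) and Il25 (0 to 60.1 TPM) overlapped across most of their ranges, as did Il4ra and Tslp. The medians of the IL-25 receptor chain and of both chains of the epithelial IL-13 receptor were above that of Il2rg.

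No member's diet difference was shown to differ between the sets. In 1 edgeR fit over the 45 libraries the interaction had unadjusted p from 0.123 (Il13ra1) to 0.874 and an adjusted p of 1.00 throughout, and 0 of 14020 genes passed (451, or 3.22%, at an unadjusted p under 0.05), and 0 of 8 members passed with DESeq2. The difference between the sets (22 weeks minus 9 weeks) was 0.40 for Il25 (interval -1.13 to 1.93), -0.41 for Tslp (-2.11 to 1.29) and 0.39 for Il17rb (-0.99 to 1.78).

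The mouse numbers form 3 series, 1 to 8, multiples of 10, and 21 to 64, which the labels do not name further and which were treated as a possible batch. 2 mice, RFD mouse 84 at 9 weeks and HFD mouse 65 at 22 weeks, fall in none. Within the 3 series, the difference of mean log2 CPM of Il25 was -2.39, 0.13 and -0.75 at 9 weeks. At 22 weeks it was -0.37, -1.09 and -1.1498. That of Tslp was -2.58, -0.16 and 1.08 at 9 weeks, and -1.65, -1.37 and -0.92 at 22 weeks. Both cytokines were thus lower on HFD in all 3 series at 22 weeks and not at 9 weeks. The first series at 22 weeks holds both libraries without an Il25 read. With the series as a batch term no member passed.

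Relative to Dclk1 the picture depended on how Dclk1 itself stood. Dclk1 ran from 382.1 over 1117 to 1751 CPM on RFD and from 33.4 over 661.9 to 2369 CPM on HFD at 9 weeks, and from 408.6 over 1790 to 2390 CPM on RFD and from 160.5 over 1612 to 3057 CPM on HFD at 22 weeks. It did not pass the test, at -0.55 (SE 0.47, edgeR adjusted p 0.567) and 0.00 (edgeR adjusted p 0.999). After subtraction of log2 CPM of Dclk1, the median gene was higher on HFD by 1.10 log2 units at 9 weeks, with 95.4% of genes higher, and by 0.16 at 22 weeks, with 63.6% higher. These ratios are read beside that shift.

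None of the 8 genes passed relative to Dclk1 in either set (limma, adjusted p under 0.1), where 0.0214% of all genes passed at 9 weeks and 0.0713% at 22 weeks. At an unadjusted p under 0.05, 0 of 8 were reached at 9 weeks, where 29.5% of all genes were, and 1 of 8 (Tslp) at 22 weeks, where 3.03% of all genes were. At 22 weeks the differences were -1.04 for Tslp (SE 0.47, unadjusted p 0.0310, limma adjusted p 0.999), -0.71 for Il25 (SE 0.46) and -0.53 for Il17rb (SE 0.31), the last 2 also with a limma adjusted p of 0.999. Without the libraries that stood apart they were -1.17, -1.05 and -0.46 (limma adjusted p 0.338, 0.123 and 0.464), and Il25 at 22 weeks stood at -1.08 without RFD mouse 3 alone. At 9 weeks they were -0.24 for Il25 (SE 0.62, limma adjusted p 0.754), 0.35 for Tslp (SE 0.63, limma adjusted p 0.646) and -0.40 for Il17rb (SE 0.42, limma adjusted p 0.445). Without HFD mouse 80, which held no Tslp read, Tslp stood at 0.18. Il13ra1 at 0.97 (SE 0.51, limma adjusted p 0.187) and Stat6 at 1.14 (SE 0.59, limma adjusted p 0.183) lay near the 9 weeks median of all genes, and without HFD mouse 80 they stood at 0.70 and 0.73.

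**Figure D3:**
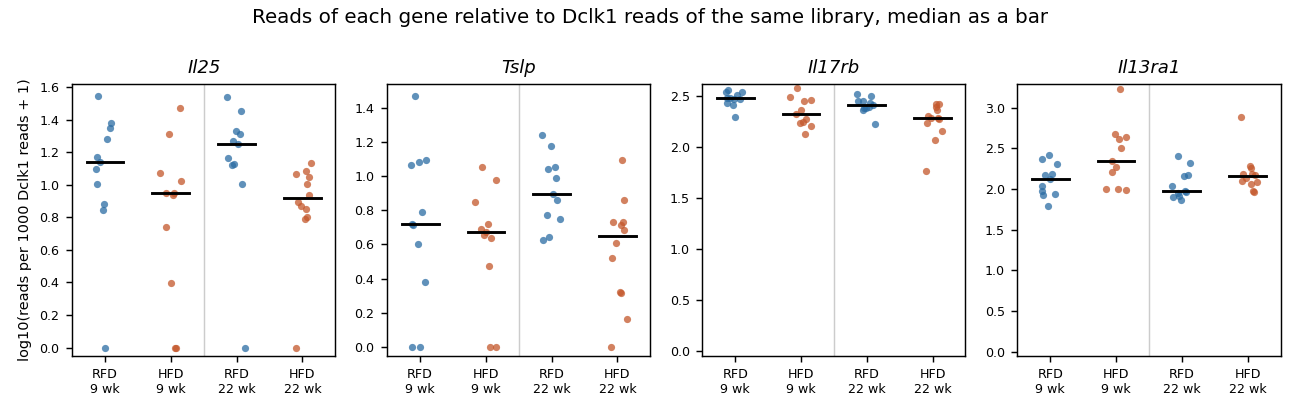
Reads of Il25, Tslp, Il17rb and Il13ra1 per 1000 Dclk1 reads of the same library, on a log10(value + 1) axis, by diet (RFD blue, HFD orange) and weeks; points are mice and bars medians. At 22 weeks Il25 per Dclk1 read is below the RFD median in all 12 HFD mice, and at both times Il17rb extends lower on HFD than on RFD.

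In reads per 1000 Dclk1 reads, Il25 ran from 0 over 12.7 to 33.99 on RFD and from 0 over 7.84 to 28.6 on HFD at 9 weeks, and from 0 over 16.7 to 33.5 on RFD and from 0 over 7.28 to 12.6 on HFD at 22 weeks. At 22 weeks 12 of 12 HFD mice lay below the RFD median and 7 of 11 RFD mice above every HFD mouse. Tslp ran from 0 over 4.27 to 28.3 against 0 over 3.73 to 10.2 at 9 weeks, and from 3.25 over 6.87 to 16.3 against 0 over 3.45 to 11.5 at 22 weeks, where 6 of 12 HFD mice lay below every RFD mouse. Il17rb ran from 192.8 over 298.0 to 361.4 against 133.3 over 208.3 to 375.7 at 9 weeks, and from 165.9 over 252.8 to 328.1 against 56.3 over 189.6 to 259.7 at 22 weeks. Its ratio to Dclk1 was less spread than its level, and 9 of 11 and 10 of 12 HFD mice lay below the RFD median. Il13ra1 per 1000 Dclk1 reads had medians of 132.5 on RFD and 219.8 on HFD at 9 weeks, and 94.5 and 142.2 at 22 weeks, with 11 of 12 HFD mice above the RFD median at 22 weeks.

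Single genes were also tested by two-sided permutation of the diet labels, with 100000 resamples, for each of the 8 genes in each set, and these p are not adjusted. For the mean log2 ratio to Dclk1 the permutation p of Il17rb was 0.0161 at 9 weeks and 0.0034 at 22 weeks. That of Tslp was 0.436 and 0.008, and that of Il25 0.619 and 0.0749. That of Il13ra1, which was higher on HFD, was 0.0281 and 0.147. Stat6 was also higher at 9 weeks, with a permutation p of 0.0535. Labels were also permuted within the number series, chosen after seeing the data and without the 2 mice of no series. The permutation p was then 0.0152 and 0.001 for Il17rb, 0.450 and 0.0018 for Tslp and 0.740 and 0.0885 for Il25. It was 0.0110 and 0.110 for Il13ra1, and 0.0452 for Stat6 at 9 weeks. These tests take 0 as no difference, while the median gene was 1.10 log2 units higher on HFD at 9 weeks. The 9 weeks p of Il13ra1 (at 0.97) and Stat6 (at 1.14) are therefore not read as particular to these genes. On the ranks of reads per Dclk1 read, the permutation p was 0.0230 and 0.00642 for Il17rb, 0.429 and 0.00576 for Tslp and 0.149 and 0.00198 for Il25. Adjusted over all genes, a rank-sum test of the same ratio called 0 genes in either set (1.12% and 4.07% of genes were lower at an unadjusted p under 0.05, and 23.6% and 3.14% higher), with adjusted p at 22 weeks of 0.379 for Il25, 0.441 for Tslp and 0.454 for Il17rb.

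The marker chosen as the reference changed these ratios. With Trpm5, a taste channel of tuft cells, in place of Dclk1, Il17rb stood at 0.08 at 9 weeks (permutation p 0.658) and -0.23 at 22 weeks (0.185). With the mean of the 26 tuft markers as reference it stood at -0.23 (permutation p 0.123) and -0.28 (0.129). Tslp at 22 weeks stood at -0.74 relative to Trpm5 (permutation p 0.0464) and -0.79 relative to the marker mean (0.0264), and Il25 at -0.41 (0.217) and -0.46 (0.112). At 9 weeks Tslp lay on the other side of 0, at 0.84 relative to Trpm5 (permutation p 0.0907) and 0.53 relative to the marker mean (0.185), and Il25 stood at 0.25 (0.621) and -0.07 (0.867). HFD mouse 80 held no read of Tslp or Il25 and Trpm5 at only 46.8 CPM, so its ratios were set by the prior count. Libraries of both diets were affected at 9 weeks. Tslp also had no read in RFD mice 10 and 40 and HFD mouse 50, and Il25 none in RFD mouse 40 and HFD mouse 8. Per 1000 Dclk1 reads the 9 weeks Tslp medians were 4.27 on RFD and 3.73 on HFD. With Dclk1 reads as an edgeR offset Tslp stood at -0.65. Trpm5 per 1000 Dclk1 reads had itself a lower median on HFD, 1462 against 2515 at 9 weeks, where 11 of 11 HFD mice were below the RFD median, and 1007 against 1267 at 22 weeks. Within the number series, the log2 difference of Il25 relative to Dclk1 was -1.18, 1.30 and -0.55 at 9 weeks, then -0.08, -1.10 and -1.12 at 22 weeks. That of Tslp at 22 weeks was -1.37, -1.38 and -0.89, and that of Il17rb was -0.80, -0.33 and 0.11 at 9 weeks, then -0.93, -0.42 and -0.32. The 1.30 of Il25 included RFD mouse 40 and HFD mouse 80, both without an Il25 read and so set by the prior count. Median Il25 per 1000 Dclk1 reads in that series was 6.615 on RFD and 6.185 on HFD. The -0.08 at 22 weeks likewise included RFD mouse 3 and HFD mouse 6, without an Il25 read, and the medians there were 14.44 and 6.034.

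**Figure D4:**
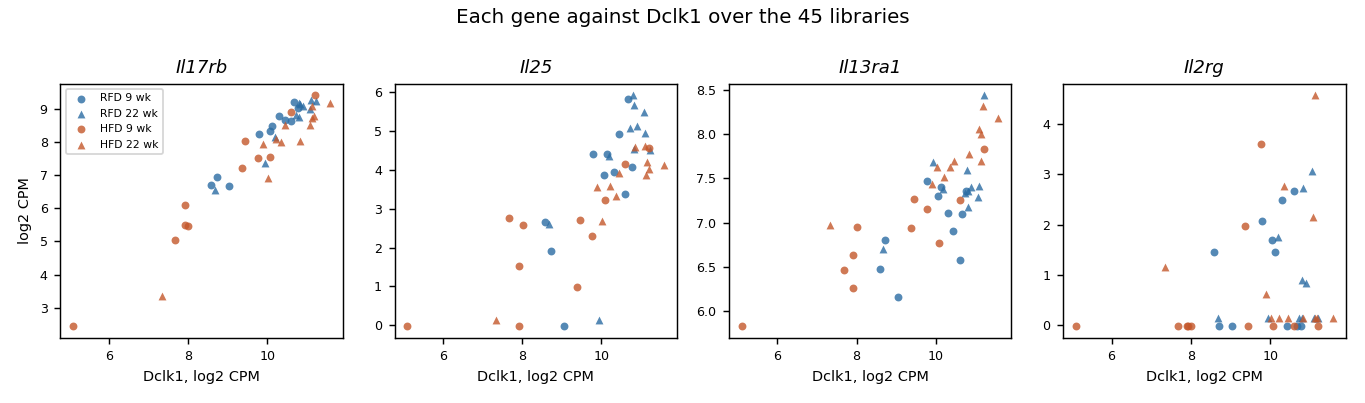
Log2 CPM of Il17rb, Il25, Il13ra1 and Il2rg against log2 CPM of Dclk1 in the 45 libraries (circles 9 weeks, triangles 22 weeks; RFD blue, HFD orange). Il17rb follows Dclk1 closely (rho 0.878), Il25 and Il13ra1 more loosely (0.726 and 0.667), and Il2rg does not (0.068).

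Over the 45 libraries, which share depth and the purity of the sort between genes, Spearman's rho of log2 CPM with Dclk1 was 0.878 for Il17rb, higher than for 99.8% of the genes tested, 0.726 for Il25, 0.667 for Il13ra1, 0.614 for Il4ra, 0.592 for Tslp, 0.367 for Stat6, 0.068 for Il2rg and -0.157 for Cish. With the mean of the tuft markers other than Dclk1 rho was 0.955 for Il17rb, 0.857 for Il25 and 0.759 for Tslp. Il2rg instead had rho 0.655 with the macrophage and dendritic cell markers and 0.605 with B cell markers. Among the members the closest pair was Il25 with Il17rb (0.819), followed by Tslp with Il17rb (0.747), and Il25 with Tslp stood at 0.681. After group means were removed the order changed, with Il17rb and Il13ra1 closest (0.708), then Tslp with Il17rb (0.693) and Il25 with Il17rb (0.644). These are descriptions with no test.

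Among the genes nearest to each member by rho over the 45 libraries were Gfi1b (0.901), Sirt7 and Irf7 for Il25, Myl6 (0.837), Id1 and Ttll7 for Tslp, and Rac2 (0.945) and Gprc5c for Il17rb. Gfi1b, a transcriptional repressor, is on the tuft marker list. For Il13ra1 they were Tubb4b (0.794), Anxa2 and Msmo1, for Il4ra Efhd2 (0.828), Adcy5 and Slc6a8, and for Stat6 Tpra1 (0.659), Nabp2 and Arhgdia. For Il2rg they were Hvcn1 (0.815), Srgn and Tyrobp, genes of blood cells, and for Cish Bmf (0.646), Nsl1 and Kcnj5.

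The rest of the pathway was read from fixed lists. Of the IL-25 receptor chains and adaptors (Il17ra, Il17rb, Traf3ip2, Traf6) 0 of 4 passed in either set, and the same held for 0 of 3 other IL-17 receptors tested, 0 of 4 Janus kinases, 0 of 2 IL-33 receptor chains and 0 of 1 type 2 lymphocyte cytokine tested (Areg). At an unadjusted p under 0.05 these lists held 1 gene, Jak2 at 9 weeks (-0.85, SE 0.32, edgeR adjusted p 0.160). Crlf2 and Il7r, the chains of the TSLP receptor, were below the filter with at most 10 and 7 reads in a library. Il13ra2, the decoy receptor of IL-13, had 1 read in all. The lymphocyte cytokines of the loop were nearly absent, with no read of Il4 or Il9, at most 3 reads of Il13, in 2 libraries, and at most 53 reads of Il5, in 13 libraries.

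Il9r, the IL-9-binding partner of the common gamma chain, passed at 9 weeks, lower on HFD, where 1.33% of all genes passed in that direction. It fell from 29.2 to 5.47 CPM (group means), with a log2 fold change of -2.50 (SE 0.56, edgeR adjusted p 0.0351) and 11 of 11 HFD mice below the RFD median. At 22 weeks its means were 31.5 and 17.0 CPM (-0.87, SE 0.34, edgeR adjusted p 0.337), with 11 of 12 HFD mice below. The call at 9 weeks was kept on leaving out each library in turn. It was lost with Dclk1's level (-1.86, edgeR adjusted p 0.304) or tuft purity (-1.97, edgeR adjusted p 0.251) as a covariate, with the rank-sum test (adjusted p 0.117) and with limma on log2(TPM + 1) and log2(TPM + 0.1) (-1.54 and -1.99, limma adjusted p 0.275 and 0.415). The 7 T cell markers tested spanned 0 to 58.6 CPM in RFD and 0 to 62.5 CPM in HFD mice at 9 weeks, summed, with a median log2 fold change of -1.39 and none passing, and with their mean as a covariate Il9r stood at -2.38, close to its value without it, with an edgeR adjusted p of 0.113. Il9r was among the genes of the interaction fit, in which none passed. Stat6 stood at -0.05 and -0.14, and the median over the 6 STAT genes tested was -0.39 and -0.34 beside -0.05 and -0.03 over all genes.

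Of the 8 CIS and SOCS inhibitors 0 passed in either set (2 at 9 weeks and 0 at 22 weeks had an unadjusted p under 0.05), with a median of -0.69 at 9 weeks and -0.16 at 22 weeks. Of 8 IL-13 response genes of epithelium that were tested, 0 passed (2 in each set had an unadjusted p under 0.05), with a median of 0.73 at 9 weeks, where 6 had higher and 2 lower fitted values on HFD, and 0.72 at 22 weeks, where 5 were higher and 3 lower. Gsdmc4, a gasdermin, stood at 1.58 (SE 0.75, edgeR adjusted p 0.268) at 9 weeks and 1.34 (SE 0.60, edgeR adjusted p 0.451) at 22 weeks, where 12 of 12 HFD mice were above the RFD median. Ang4, an antimicrobial ribonuclease that Paneth and goblet cells make, stood at 3.13 (SE 1.25, edgeR adjusted p 0.190) at 9 weeks. Sprr2a3 and Sprr2a1, small proline-rich proteins, stood on the other side, at -1.99 (SE 0.99, edgeR adjusted p 0.286) and -0.89 (SE 0.85, edgeR adjusted p 0.617) at 9 weeks. Paneth and goblet markers, none of which passed, had median log2 fold changes of 2.18 and 0.64 in the 9 weeks set, then 1.495 and 0.84 in the 22 weeks set, and their part in the response genes was not tested.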

How the data were processed

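Tuft cell RNA was amplified by Smart-seq2 and made into unstranded Nextera XT libraries; per the labels and the study's methods the authors trimmed reads with Cutadapt 1.15, aligned them to GRCm38 with STAR 2.6.0 and counted them with RSEM (version not given in the sources used here). The deposited expected counts were rounded to whole numbers (8.79% of counts above 0 were not whole), and TPM, also deposited by the authors, served for levels compared between genes. FPKM were not used, 24 columns per unit matched no sample listed and were left out, and the authors' cell-type weighting was not repeated.

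Gene IDs were matched to GENCODE M21. A gene was tested (14020 in all) when its count exceeded 5 in 6 or more libraries. Diets were compared within each set with edgeR 4.0.16 (TMM, robust quasi-likelihood test, R 4.3.3), with Benjamini-Hochberg adjustment over all genes and a threshold of 0.1. Ratios to Dclk1 were tested with limma 3.58.1 on log2 CPM (prior count 2) minus that of Dclk1, and single genes by permutation (scipy 1.17.1). CPM were normalized within each set. DESeq2 1.42.0 and the other alternatives are in the closing section. Each library was 1 mouse, so p-values measure the spread between mice; mice shared cages and days of killing, which the labels do not give. Intervals of counts of 0 cover counting error only.

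The named genes were the 8 members, Dclk1, genes of the lists behind counts of 5 or fewer, and the 3 nearest genes per member; Trpm5, Ptprc, Olfm4, Smoc2, Cck, Gcg, Mttp, Il33, Jak2, Gsdmc4, Ang4, Sprr2a1 and Sprr2a3 were named after their values were seen. The members and lists were chosen with earlier results of these data known. Some results of these lists are not reported here. The scripts were tested on simulated data.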

Additional observations from a re-analysis of the deposited data

How the results depend on the processing

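No paired analysis was possible because the diet groups within a set share no mouse number; the number series was fitted as a batch term instead. Of the alternatives, those with Dclk1 as a covariate, with Dclk1 reads as an offset or without the libraries that stood apart, and the permutation tests of ratios to other references, of ranks and within number series, were chosen after seeing the data. The cause of the shifts below was not tested.

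Members called moved from 0 to 1 at 9 weeks with no filter on low counts and at 22 weeks without the libraries that stood apart (Il25 in both), and relative to Dclk1 at 9 weeks to 2 with Trpm5 as reference (Il13ra1 at 1.46, limma adjusted p 0.0888; Stat6 at 1.62, 0.0861) and to 2 with Dclk1 reads as an edgeR offset (Il13ra1 at 1.38, 0.0462; Stat6 at 2.23, 0.0168), where 49.6% of all genes passed. Leaving out 1 library gave 0 to 1 members at 9 weeks (Il25 without HFD mouse 64), 0 to 2 relative to Dclk1 at 9 weeks (Il13ra1 and Stat6 without HFD mouse 64, Stat6 without HFD mouse 63), and 0 at 22 weeks on both scales. The share of all genes passing was not counted with Trpm5 as reference or for the leave-one-out fits relative to Dclk1. In the main fit relative to Dclk1 at 9 weeks 95.4% of all genes were higher on HFD. The calls of Il13ra1 and Stat6, also higher, are not read as results about the members.

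All genes called at 9 weeks numbered 466 in the main fit, 1219 with DESeq2, 1505 with no filter, 11 and 5 with limma on log2(TPM + 1) and log2(TPM + 0.1), 0 with the rank-sum test, 290 without low totals, 24, 49 and 21 with tuft purity, T cell markers and Dclk1 as covariates, 69 without the library that stood apart, and 59 (without HFD mouse 6) to 1996 (without HFD mouse 64) on leaving out 1 library. At 22 weeks they numbered 111 in the main fit, then 301, 429, 54, 35 and 0 in the same order, 185 with the number series as batch, 171, 40 and 379 with the covariates, 189 without the libraries that stood apart, and 58 (without RFD mouse 10) to 667 (without RFD mouse 1). No 22 weeks library had a low total, so that setting was not run there.

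Of the members' 344 values under these alternatives 316 kept their direction and their side of the threshold and 22 turned sign, all near 0 or imprecise. At 9 weeks these were Stat6 at 0.043 (rank-sum) and 0.052 (purity), Il13ra1 at 0.13 (purity) and 0.16 (Dclk1 covariate), and Il2rg at 0.25 (Dclk1 covariate). Relative to Dclk1 at 9 weeks they were Il2rg at -0.065 (prior count 0.5), Il25 at 0.11 (TPM) and 0.25 (Trpm5), Il17rb at 0.084 (Trpm5) and Tslp at -0.65 (offset). At 22 weeks Il2rg stood at -0.66 (DESeq2); relative to Dclk1, Il2rg stood at -0.080 and Cish at -0.42 (libraries apart out), Cish at -0.10 (batch), and Stat6 at 0.33 (TPM), 0.29 (Trpm5), 0.24 (marker mean) and 0.44 (offset). The interaction of Il4ra stood at -0.019 (DESeq2 size factors), -0.017 (DESeq2) and -0.31 (batch), and that of Cish at -0.14 (batch). On leaving out 1 library, 25 of 720 values turned sign: Stat6 at 9 weeks spanned -0.15 to 0.033, and at 22 weeks Cish spanned -0.44 to 0.070 and Il2rg -0.71 to 1.63; relative to Dclk1 at 22 weeks Il2rg spanned -0.062 to 0.42, Stat6 -0.32 to 0.19 and Cish -0.26 to 0.35. Depth limits Il2rg, Cish, Tslp and Il25, which had 3 reads or fewer in 35, 15, 9 and 8 of 45 libraries.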
